A study of Rattus norvegicus with 6 samples.

Results

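The carboxylesterase genes described here are 8 of 16209 genes measured in rat liver: Ces1d and Ces1f of the Ces1 subfamily, and Ces2a, Ces2c, Ces2e, Ces2g, Ces2h and Ces2j of the Ces2 subfamily. They were taken by gene name from a set of 10, of which Ces1c and Ces1e were not analysed here. The family was chosen by the normalized reads of Ces2c, which were lower in the livers of ginkgetin-treated rats, and the question put to it is whether its paralogs share that difference. The values of this contrast are therefore given as a description, without a test.

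RNA was sequenced from 6 liver samples of rats with liver fibrosis. The ginkgetin group had 3 samples from rats given ginkgetin, a biflavone of plant origin, at 10 mg/kg/day, and the vehicle group had 3 samples from rats given vehicle. A sample is called a liver in what follows, although the labels do not state that each came from a separate animal. All 6 came from fibrotic rats, and there was no group without fibrosis. The sources used here do not state strain, sex, age, duration of treatment or how fibrosis was brought about. Values are normalized reads, and a library is the sequencing library of 1 liver sample. They summed to 16250451 to 16991873 per library in the ginkgetin group, against 15863575, 11768875 and 8265117 in vehicle replicates 1 to 3. Vehicle replicate 3 stood apart in this sum and in its markers, with the lowest sum of hepatocyte markers and the highest sums of cholangiocyte and myofibroblast markers, so results are also given without it. Albumin took 6.56% to 12.1% of the reads in the ginkgetin livers and 2.89% to 9.44% in the vehicle livers.

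Carboxylesterases are serine hydrolases that cleave esters, amides and thioesters, and most of them reside in the endoplasmic reticulum of hepatocytes. They activate or inactivate ester drugs, and some of them hydrolyse stored triglyceride. In humans CES1 and CES2 are the main liver forms, whereas rodents carry clusters of duplicated Ces1 and Ces2 genes with overlapping substrates. Several rodent Ces2 genes are induced through the xenobiotic receptors PXR and CAR.

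Promoter windows are shown for 4 Ces2 genes, because they are paralogs with different values in these livers. RefSeq windows in the GRCr8 assembly, from 250 bases before to 50 bases after the start of the gene, were found for 7 of the 8 members and not for Ces2a. GRCr8 is not the assembly used for the reads. Each sequence is on the + strand, at chr1:270376951-270377250 for Ces2c, chr19:49856420-49856719 for Ces2g, chr19:304819-305118 for Ces2j and chr19:163649-163948 for Ces2e. Capitals mark the stretch AAATTCCTGCCTGGGC, the longest run that Ces2c, Ces2g and Ces2j share, and the box CCAAT, which reads ATTGG on the other strand.
Ces2c: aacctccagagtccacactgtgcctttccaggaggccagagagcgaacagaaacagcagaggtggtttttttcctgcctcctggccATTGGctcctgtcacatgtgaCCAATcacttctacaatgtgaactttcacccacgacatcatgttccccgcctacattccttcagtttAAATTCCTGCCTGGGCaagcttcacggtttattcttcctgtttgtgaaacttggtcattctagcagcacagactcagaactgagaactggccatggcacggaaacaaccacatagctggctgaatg
Ces2g: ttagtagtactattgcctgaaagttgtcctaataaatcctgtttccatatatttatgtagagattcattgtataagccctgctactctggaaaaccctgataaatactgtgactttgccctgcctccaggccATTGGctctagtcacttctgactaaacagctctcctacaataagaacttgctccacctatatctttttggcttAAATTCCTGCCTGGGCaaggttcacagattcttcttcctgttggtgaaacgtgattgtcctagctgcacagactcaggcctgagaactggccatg
Ces2j: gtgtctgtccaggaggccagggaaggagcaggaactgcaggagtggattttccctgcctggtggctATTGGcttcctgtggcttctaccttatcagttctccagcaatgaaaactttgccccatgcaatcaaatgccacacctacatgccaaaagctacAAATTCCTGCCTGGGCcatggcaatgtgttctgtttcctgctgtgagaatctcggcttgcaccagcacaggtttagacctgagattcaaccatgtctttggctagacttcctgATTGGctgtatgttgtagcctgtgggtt
Ces2e: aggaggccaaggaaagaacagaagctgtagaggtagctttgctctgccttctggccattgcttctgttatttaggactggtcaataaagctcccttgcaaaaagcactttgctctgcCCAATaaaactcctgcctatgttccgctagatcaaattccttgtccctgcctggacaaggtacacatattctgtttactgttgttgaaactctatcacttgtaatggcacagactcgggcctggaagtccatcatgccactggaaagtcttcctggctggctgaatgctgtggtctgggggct

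The longest run of bases that the Ces2c window shared with that of Ces2g was 21 bases, TTAAATTCCTGCCTGGGCAAG, and with that of Ces2j it was the 16 bases in capitals. With Ces2e the longest run was 12 bases, with Ces1d and Ces2h 9, and with Ces1f 8. That stretch was defined from these windows, after the values had been seen. On either strand it was found in 3 of the 7 member windows, by its construction, and in 5 of 33469 RefSeq windows of the same length (0.0149%), Ces2i being among the others. CCAAT was found on either strand in 6 of 7 member windows and in 37.5% of all windows. The half-site AGGTCA, which nuclear receptors can bind, was found on either strand in Ces2h alone of the 7, against 16.2% of all windows, and TATAAA in 0 of 7, against 14.2%. These are matches of letters and no binding was measured.

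Ces2c was the only 1 of the 8 members with a lower mean on the log2 scale in the ginkgetin livers, beside 51.4% of all genes tested, and the other 7 members had higher means, beside 48.6%. With library totals set equal, which put the median of all genes at -0.53, Ces2g joined it on the lower side at -0.04. Ces2c, listed by RefSeq with the synonym ACH M1, a name given to an acylcarnitine hydrolase in mouse, averaged 7.4% of its vehicle level in the ginkgetin livers. Ces1d, which in mouse is a triacylglycerol hydrolase, had the highest log2 fold change by limma, whereas by the ratio of means, edgeR and DESeq2 that of Ces2e was higher. By limma, with Benjamini-Hochberg adjustment over the 14639 genes tested at 0.05, 0 of the 8 members were called, beside 0.0137% of all genes tested (0.00683% higher and 0.00683% lower). The count of members was 2 at an unadjusted p of 0.05, beside 20.2% of all genes. It was 0 by edgeR on recovered reads, beside 0.0% of all genes, and 1 by DESeq2, which was Ces2c, beside 9.85% of the 14016 genes with an adjusted p. Since the contrast chose the members, nothing is read from these counts.

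Ces2c had 12.2, 4.63 and 11.1 normalized reads in ginkgetin replicates 1 to 3, against 72.4, 264 and 41.1 in vehicle replicates 1 to 3. All 3 ginkgetin livers lay below all 3 vehicle livers, and vehicle replicate 2 stood well above the other vehicle livers. The means were 9.31 ± 4.09 with ginkgetin and 126 ± 120 with vehicle (SD, n = 3 each), and the log2 fold change of log2(value + 1) was -3.28 (SE 0.73). Of all genes tested, 1.28% had a log2 fold change as low or lower. Before normalization these were 11, 4 and 9 reads with ginkgetin and 61, 317 and 67 with vehicle. The exact 95% Poisson interval was 5.49 to 19.7 reads for the highest ginkgetin count and 46.7 to 78.4 for the lowest vehicle count, which covers counting error only. With any one library left out the log2 fold change ran from -3.85, without vehicle replicate 3, to -2.53, without vehicle replicate 2.

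**Figure D1:**
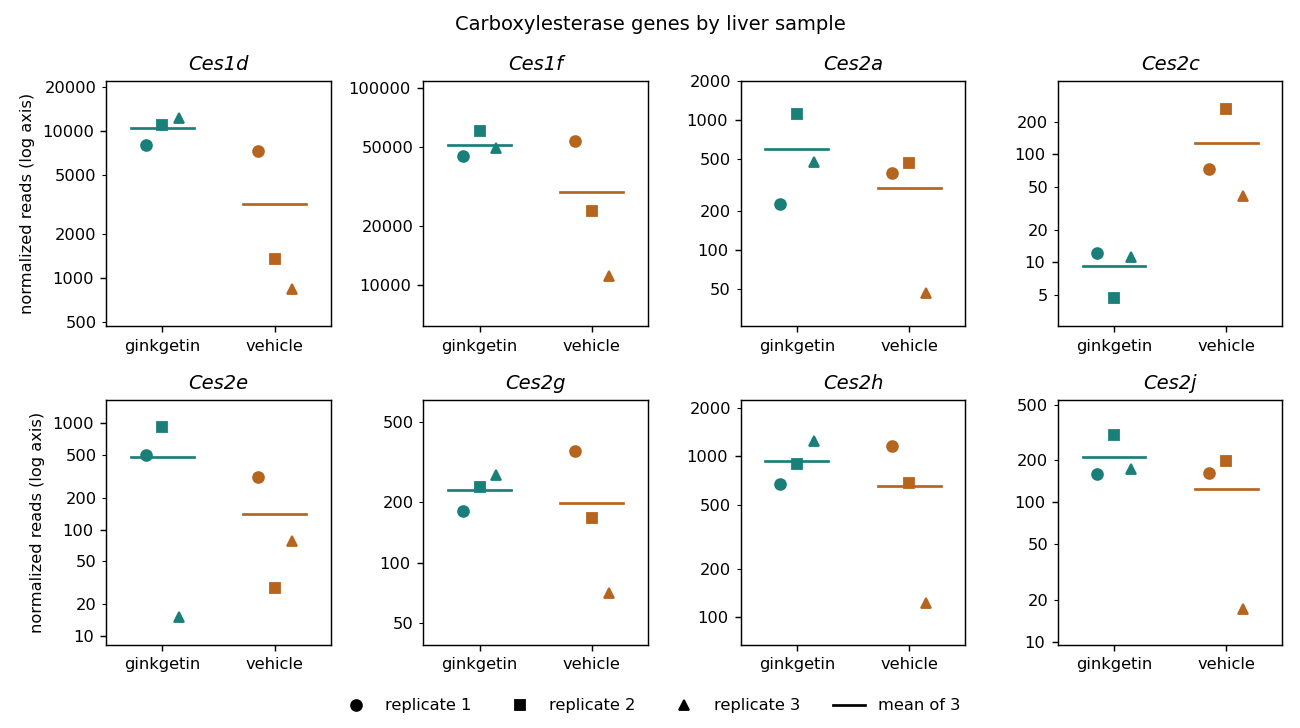
Normalized reads (log axis, scaled separately for each gene) of the 8 carboxylesterase genes, with ginkgetin livers on the left and vehicle livers on the right. Points are single livers marked by replicate and lines are means of 3; the Ces2c points of the ginkgetin group, at 4.63 to 12.2, lie below the vehicle points, at 41.1 to 264.

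The Ces1 members carried most of the family's reads. Ces1d had 8097, 11137 and 12258 normalized reads in the ginkgetin livers, against 7389, 1335 and 844 in the vehicle livers. The ginkgetin livers all lay above the vehicle livers, but vehicle replicate 1 was close to ginkgetin replicate 1. The log2 fold change was 2.35 (SE 0.76), rising to 3.28 when vehicle replicate 1 was left out and dropping to 1.72 when vehicle replicate 3 was. Ces1f, its neighbour in the same gene cluster beyond Ces1e, had 44847, 59993 and 49608 normalized reads with ginkgetin, against 53949, 23787 and 11198 with vehicle. Here vehicle replicate 1 lay within the ginkgetin range, and the log2 fold change was 1.07 (SE 0.74). It was 0.51 without vehicle replicate 3 and 0.36 with quantile scaling. Ces1d thus made up 16.9% ± 2.5 of the Ces1d and Ces1f reads in the ginkgetin livers and 8.12% ± 3.50 in the vehicle livers (SD, n = 3 each), with no overlap between the groups. Of the 8 members, 2 had groups that did not overlap, beside 27.4% of all genes tested: Ces1d on the higher side, beside 11.4%, and Ces2c on the lower side, beside 16.1%. Nothing is read from these counts either.

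Ces2h, Ces2g and Ces2j had overlapping groups, and their log2 fold changes depended on which vehicle library was set aside. Ces2h had 674, 889.7 and 1247 normalized reads with ginkgetin, against 1148, 683 and 122 with vehicle, and the groups overlapped. Ces2g, which shares the longest promoter run with Ces2c, had 180.2, 237 and 272 with ginkgetin, against 361, 166 and 70.6 with vehicle, so that vehicle replicate 1 was the highest of the 6. Ces2j had 158, 302 and 173 with ginkgetin, against 161, 197 and 17.2 with vehicle. Vehicle replicate 3 was the lowest library for all 3 genes. Their log2 fold changes were 0.99 (SE 0.73) for Ces2h, 0.48 (SE 0.54) for Ces2g and 1.28 (SE 0.84) for Ces2j. Without vehicle replicate 3 they were 0.04 for Ces2h, -0.11 for Ces2g and 0.18 for Ces2j. Without vehicle replicate 1 they were 1.65 for Ces2h, 1.06 for Ces2g and 1.76 for Ces2j.

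Ces2a and Ces2e varied widely within both groups. Ces2a, which RefSeq lists as a transcribed pseudogene in GRCr8, had 226, 1120 and 476 normalized reads with ginkgetin, against 393, 467 and 46.6 with vehicle (log2 fold change 1.26, SE 0.90). Without vehicle replicate 3 its log2 fold change was 0.21, and without vehicle replicate 2 it was 1.85. Ces2e, the next gene after Ces2a in that assembly, had 499.7, 934 and 14.8 with ginkgetin, against 316, 28.3 and 77.3 with vehicle. Ginkgetin replicate 3 was its lowest library and ginkgetin replicate 2 its highest, and the log2 fold change was 1.12 (SE 1.48). Leaving out ginkgetin replicate 2 gave -0.01, and leaving out ginkgetin replicate 3 gave 2.93. The ratio of the highest to the lowest ginkgetin liver was 62.9 for Ces2e, against a median of 1.49 over the 10179 genes that averaged at least 50 normalized reads and had no 0 in that group. No other of those genes had a ratio as large, an observation made after the values were seen. Ces2a was also highest in ginkgetin replicate 2, but ginkgetin replicate 3 lay between the other ginkgetin livers, and vehicle replicate 2 was the highest vehicle liver.

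**Figure D2:**
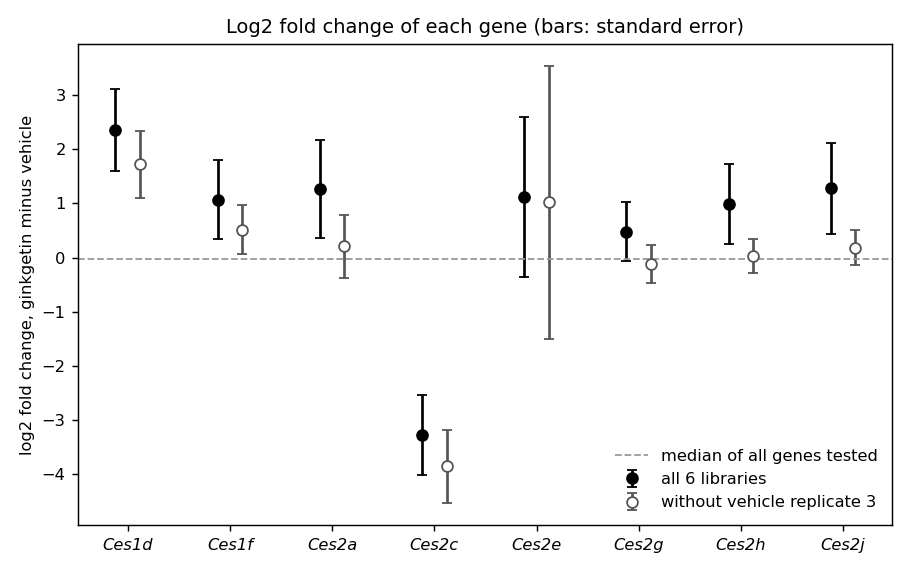
Log2 fold change of each carboxylesterase gene, ginkgetin minus vehicle, from all 6 libraries (filled) and without vehicle replicate 3 (open); bars are standard errors and the dashed line is the median of all genes tested, -0.02. Ces2c lies at -3.28 and -3.85 and Ces1d at 2.35 and 1.72, while the other Ces2 genes, Ces2e excepted, move towards 0 without that library.

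The other 7 members had a median log2 fold change of 1.12, against -0.02 over all genes tested, and 0.21 without vehicle replicate 3, where all genes had -0.01. In that setting 6 of the 7 were higher and 1, Ces2g, was lower. Vehicle replicate 3 was the lowest library for 6 of the 7, Ces2e being the exception. It was also the lowest for the hepatocyte markers. Their 20 genes summed to 2324182 to 3533440 normalized reads in the ginkgetin livers, against 547168 to 2834184 in the vehicle livers, with vehicle replicate 3 at the low end. Myofibroblast and stellate markers summed to 3594 to 6686 with ginkgetin, against 12049 to 129057 with vehicle, with the same library at the high end. The part of cell makeup in the members' values was not tested. In bulk tissue fewer cells of a type and less RNA per cell cannot be told apart.

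Sums over the members do not depend on how shared reads were split among those members, but they leave out copies outside the sum, such as Ces2i and the Ces2 pseudogenes. Ces1d and Ces1f together had 52944, 71130 and 61866 normalized reads with ginkgetin, against 61339, 25122 and 12042 with vehicle. The 6 Ces2 genes together had 1750.1, 3487 and 2195 with ginkgetin, against 2451, 1805 and 374 with vehicle. Both sums overlapped between groups, with vehicle replicate 1 inside the ginkgetin range, and for the Ces2 sum vehicle replicate 2 as well.

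Shares within the Ces2 reads do not depend on the scaling between libraries. Ces2c made up 0.695% of the Ces2 reads in ginkgetin replicate 1 (95% Wilson interval 0.388 to 1.24), 0.133% in replicate 2 (0.052 to 0.341) and 0.507% in replicate 3 (0.267 to 0.961). In vehicle replicates 1 to 3 it made up 2.95% (2.31 to 3.77), 14.6% (13.2 to 16.2) and 10.98% (8.74 to 13.7). The intervals cover counting error only, not the spread between livers, and as Ces2c chose the family these shares are a description. Ces2h made up 40.3% ± 15.7 with ginkgetin and 39.0% ± 7.3 with vehicle (SD, n = 3 each). Ces2j made up 8.53% ± 0.58 with ginkgetin and 7.37% ± 3.24 with vehicle. The shares of Ces2a, Ces2e and Ces2g also overlapped between groups. Reads were not corrected for transcript length, so shares of different genes are not compared as levels.

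**Figure D3:**
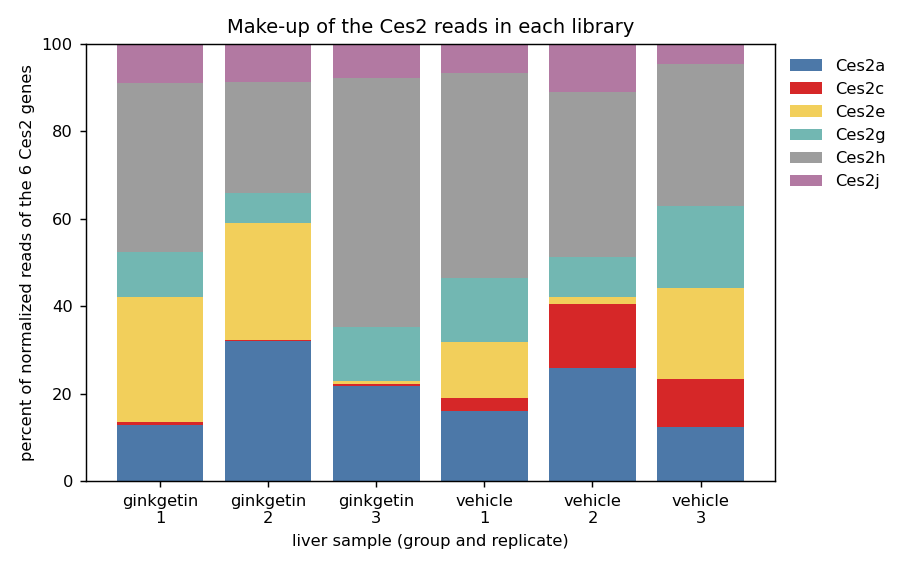
Percent of the normalized reads of the 6 Ces2 genes that each gene takes in each library, ginkgetin livers on the left and vehicle livers on the right. The Ces2c segment is 0.133% to 0.695% in the ginkgetin livers and 2.95% to 14.6% in the vehicle livers, and the Ces2e segment is small in ginkgetin replicate 3 and vehicle replicate 2.

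Against albumin, a hepatocyte product, the 2 subfamily sums lay close together in both groups. This scale was chosen after the values had been seen. The Ces1 sum was 39.5 ± 8.2 per 1000 Alb reads in the ginkgetin livers and 39.6 ± 11.6 in the vehicle livers (SD, n = 3 each). The Ces2 sum was 1.52 ± 0.30 with ginkgetin and 1.73 ± 0.22 with vehicle. On the same scale 3 members separated the groups. The share of all genes that do so on this scale was not computed, so nothing is read from that count. Ces2c had 0.112, 0.024 and 0.060 reads per 10000 Alb reads with ginkgetin, against 0.483, 2.88 and 1.72 with vehicle. Ces2g had 1.66, 1.21 and 1.47 with ginkgetin, against 2.41, 1.82 and 2.96 with vehicle, so that it was lower in the ginkgetin livers on this scale but not in normalized reads. Ces1d had 74.8, 56.6 and 66.2 with ginkgetin, against 49.3, 14.6 and 35.4 with vehicle.

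Relative to the mean log2 level of the 20 hepatocyte markers in the same library, the same 3 members separated the groups. This scale was also chosen after the values had been seen. The share of all genes that separate on it was not computed, so nothing is read from the count. The difference between ginkgetin and vehicle livers was -4.43 for Ces2c, -0.68 for Ces2g and 1.19 for Ces1d on the log2 scale. For the other 5 members it ran from -0.17 for Ces2h to 0.13 for Ces2j, and the groups overlapped. Ces2c ran from -3.03 to -1.51 in the ginkgetin livers and from 0.845 to 3.19 in the vehicle livers. As Ces2c chose the family, this is a description. Within groups the SD of the other 5 members ran from 0.215 (Ces2h) to 3.34 (Ces2e) with ginkgetin. With vehicle it ran from 0.331 (Ces2h) to 1.88 (Ces2e). Their small differences between group means therefore do not show that their levels were unchanged.

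**Figure D4:**
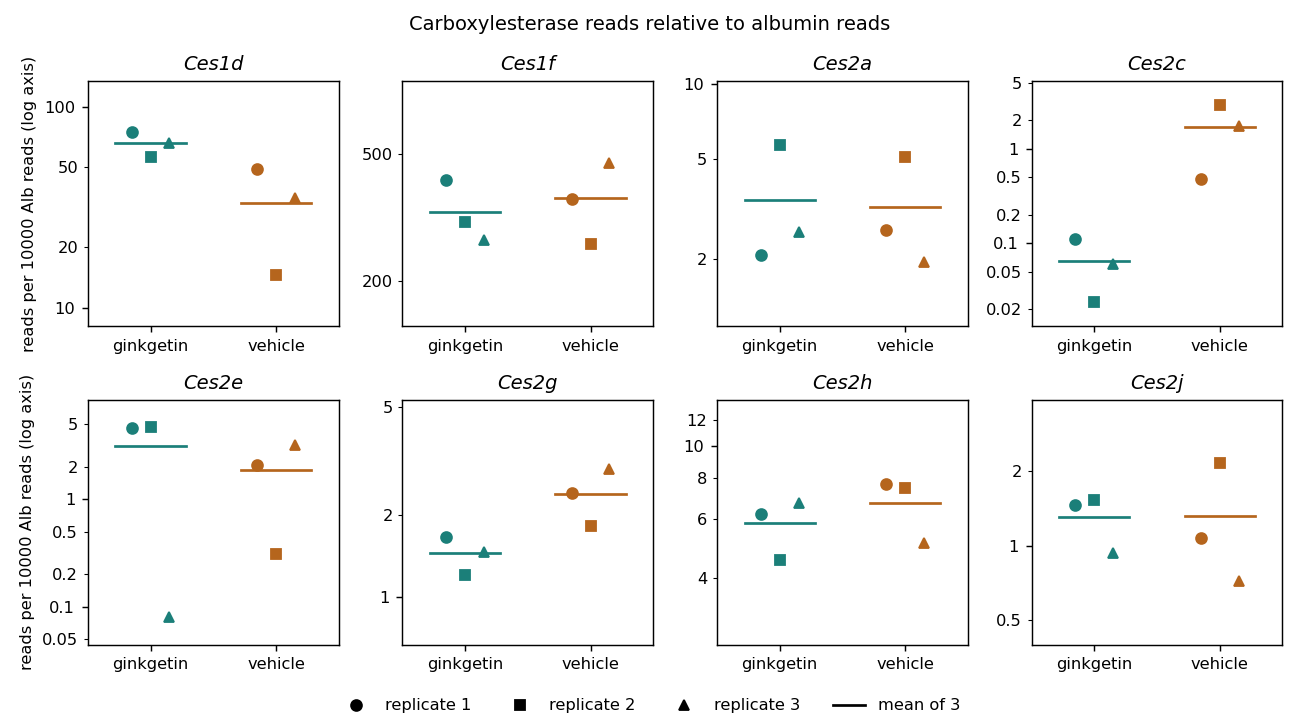
Reads of each carboxylesterase gene per 10000 Alb reads of the same library (log axis, scaled separately for each gene), ginkgetin on the left and vehicle on the right, with points for single livers and lines for means of 3. Ces2c and Ces2g are lower and Ces1d higher in all ginkgetin livers, and the groups overlap for the other 5 genes.

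Of the other carboxylesterases listed by name, Ces2i and Ces4a had enough reads to test and Ces1a had 2 reads in all. Ces2i, whose promoter window also holds AAATTCCTGCCTGGGC, had 64.1, 78.7 and 77.9 normalized reads with ginkgetin, against 87.8, 89.0 and 16.0 with vehicle (log2 fold change 0.53, SE 0.65). Without vehicle replicate 3 its log2 fold change turned to -0.27. Ces4a had 85.1, 102 and 114 with ginkgetin, against 123, 61.5 and 23.9 with vehicle (0.80, SE 0.57, and 0.19 without vehicle replicate 3). Both overlapped between the groups, and limma called neither (adjusted p = 0.663 for Ces2i and 0.444 for Ces4a). The locus LOC679149 was matched by gene ID to Ces2b after the lists were drawn up. It also passed the filter on low values, but its log2 fold change is not given here. It had 3.32, 1.16 and 0 normalized reads with ginkgetin, against 3.56, 4.99 and 10.4 with vehicle. Like Ces2c, it was lower in all ginkgetin livers, beside 16.1% of all genes tested. These were only 3, 1 and 0 reads before normalization with ginkgetin and 3, 6 and 17 with vehicle. Replicate 1 had the same count in both groups, so nothing is read from this separation. RefSeq also lists pseudogenes beside Ces2c, Ces2c-ps1 and Ces2e-ps1, and reads of such near-identical copies may have been split between genes.

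Other enzymes and regulators of the same functions were mostly higher in the ginkgetin livers, as the hepatocyte markers were. Over all 12 lists beside the family, limma called 0 of their 132 genes, beside 0.0137% of all genes tested. Called by edgeR were 0, beside 0.0%, and by DESeq2 24, beside 9.85% of the genes with an adjusted p. Counts at an unadjusted p of 0.05 stand beside 20.2% of all genes tested, and counts of higher means beside 48.6%. Nothing is read from the counts of genes called or at that p. Of 12 drug and toxin hydrolases tested, 11 had higher means, at a median log2 fold change of 0.62 (2 at an unadjusted p of 0.05), and 0.32 without vehicle replicate 3. They included the paraoxonases Pon1 (1.77, SE 0.70) and Pon3 (1.28, SE 0.61), the prodrug hydrolase Cmbl (1.12, SE 0.46) and Bphl (1.09, SE 0.58). All 18 genes of triglyceride hydrolysis and VLDL assembly had higher means, at a median of 0.94 (5 at an unadjusted p of 0.05), and 0.58 without vehicle replicate 3. Abhd5, the activator of adipose triglyceride lipase (1.08, SE 0.32), and G0s2, its inhibitor (1.60, SE 0.47), had the smallest p of that list, followed by Tm6sf2 (1.68, SE 0.57) and Dgat2 (1.52, SE 0.55), which makes triglyceride.

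The receptors that regulate xenobiotic esterases had higher means. Over all genes tested, 48.6% had higher means and 20.2% an unadjusted p under 0.05. All 14 nuclear receptors and hepatocyte factors had higher means, at a median of 1.13 (6 at an unadjusted p of 0.05), and 0.54 without vehicle replicate 3. Nr1i3, which encodes CAR, had 2196, 1924 and 2169 normalized reads with ginkgetin, against 1356, 391 and 396 with vehicle (1.81, SE 0.47). Rxra, the shared partner of CAR and PXR, had 734, 1926 and 784 with ginkgetin, against 304, 295 and 257 with vehicle (1.86, SE 0.37, limma adjusted p = 0.0886). Neither gene's groups overlapped. In that list 6 of 14 genes separated on the higher side, beside 11.4% of all genes tested, and nothing is read from this separation. Nr0b2 (1.89, SE 0.56) and Ahr (0.92, SE 0.31) were the other named genes. Of 15 enzymes and transporters induced through PXR or CAR, 13 had higher means, at a median of 1.45 (5 at an unadjusted p of 0.05), and 0.52 without vehicle replicate 3. Cyp3a9 (1.76, SE 0.47), Cyp3a2 (2.58, SE 0.96) and the bile canalicular exporter Abcc2 (2.52, SE 0.76) were on the higher side, and the basolateral exporter Abcc3 (-1.79, SE 0.54) was on the lower side with Ces2c. Abcc3 had 79.6, 57.9 and 30.9 normalized reads with ginkgetin, against 97.3, 358 and 177 with vehicle.

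Markers of cholangiocytes and myofibroblasts had lower means, as Ces2c did. Over all genes tested, 51.4% had lower means and 20.2% an unadjusted p under 0.05. All 11 cholangiocyte markers tested lay below 0, their median being -2.62 (10 at an unadjusted p of 0.05), and the 12 with values summed to 1059 to 1620 normalized reads with ginkgetin, against 3504 to 23533 with vehicle. The smallest p of that list belonged to Sctr (-3.21), Cftr (-3.45), Epcam (-1.88) and Cldn4 (-4.04). Of 11 myofibroblast and stellate markers, 10 had lower means, at a median of -2.29 and -1.25 without vehicle replicate 3 (7 at an unadjusted p of 0.05), led by Pdgfrb, Pdgfra, Col1a1 and Timp1. Both sums were highest in vehicle replicate 3, whereas Ces2c was highest in vehicle replicate 2. The part of these cells in the Ces2c difference was not tested. The 20 hepatocyte markers had a median of 1.18 and 0.39 without vehicle replicate 3 (3 at an unadjusted p of 0.05), with Apoa2, Otc, F9 and Asgr2 leading. Macrophage markers had a median of -0.26 over 12 genes (6 at an unadjusted p of 0.05), and 0.39 without vehicle replicate 3. Endothelial markers had a median of 0.01 over 9 genes (4 at an unadjusted p of 0.05), and -0.51 with equal library totals. Both lists lay on both sides of 0. Trem2 (-7.197) and Gpnmb (-4.447) were lower, and Marco (2.635) and Timd4 (2.093, at most 16.2 normalized reads) higher. Vwf (-2.075) and Cdh5 (-0.821) were lower, and Clec4g (1.961) and Kdr (0.75) higher. Of the pancreas markers, Cpa1 and Prss1 had 1 read each over all libraries and Ctrb1 had 10, all in vehicle replicate 3. The 3 genes tested were Cela2a (-0.528), Cel (0.512) and Cela3b (-0.676). They had a median of -0.53, and 0.14 without vehicle replicate 3. The 5 intestinal markers tested had a median of -0.21 (2 at an unadjusted p of 0.05), with 2 higher and 3 lower. Apoa4 (4.155) was higher, at 1348, 6439 and 4012 normalized reads with ginkgetin, against 719, 205 and 40.5 with vehicle. Vil1 (-3.269), Krt20 (-1.034) and Anpep (-0.207) were lower. Fabp2 had 201 reads over all libraries. Lct had 1 read over all libraries and Cdx1 6, of which 1 was in a ginkgetin liver.

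**Figure D5:**
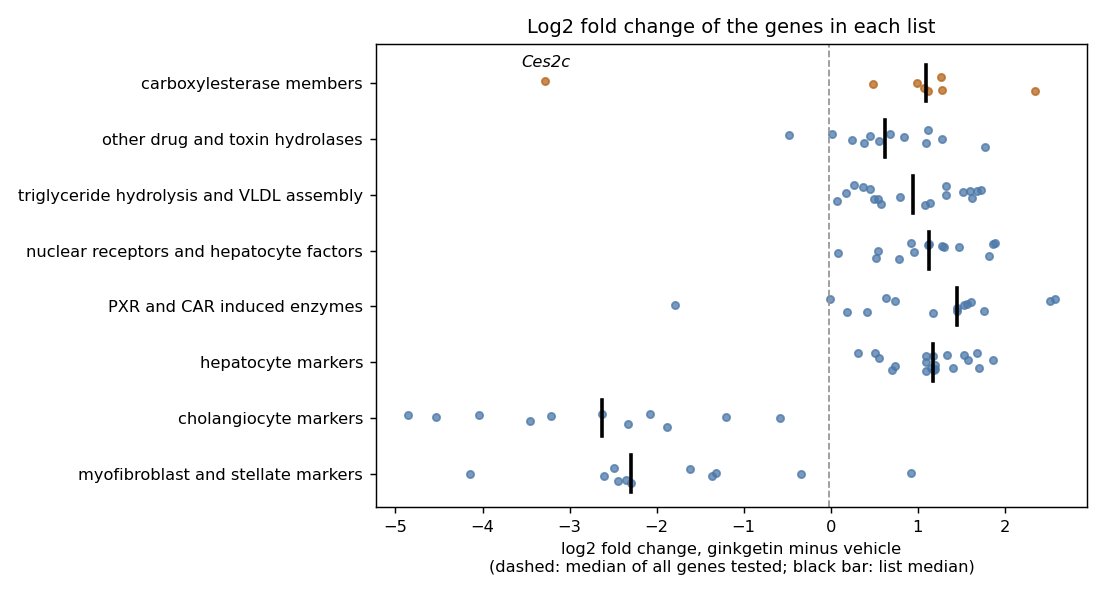
Log2 fold change, ginkgetin minus vehicle, of single genes (points) in the carboxylesterase family and 7 other lists; black bars are list medians and the dashed line is the median of all genes tested, -0.02. Ces2c, at -3.28, lies below 0, as most cholangiocyte and myofibroblast markers do, and the other 7 family members lie above 0, as the hepatocyte markers do. The part of cell makeup in these values was not tested.

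The genes whose log2 levels were most like Ces2c over the 6 libraries, among 9827 named genes with a mean of at least 50 normalized reads, were Chpf2 (Pearson r = 0.991), Gtdc1 (0.986), Etl4 (0.986), Slpi (0.984) and Mcpt8l2 (0.978). These correlations are given as a description, since the libraries fall into groups by treatment. They compare the pattern over libraries and not the size of the differences. Chpf2 ran from 344 to 571 normalized reads, Gtdc1 from 79.8 to 145 and Etl4 from 277 to 512, against 4.63 to 264 for Ces2c. Slpi, a secreted protease inhibitor, had 324, 241 and 362 normalized reads with ginkgetin, against 586, 1122 and 449 with vehicle. Mcpt8l2, of the mast cell protease family, had 14.4, 5.78 and 18.6 with ginkgetin, against 56.9, 152 and 58.9 with vehicle. Both shared with Ces2c a lowest value in ginkgetin replicate 2 and a highest value in vehicle replicate 2. Most like the sum of the 8 members were Gbf1 (0.997), Ldha (0.996), Slc25a20 (0.995), Mto1 (0.995) and Ehhadh (0.994). Slc25a20, the mitochondrial acylcarnitine carrier, had 3006, 3329 and 3094 normalized reads with ginkgetin, against 3119, 1593 and 1017 with vehicle.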

How the data were processed

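Per the labels' protocols, total RNA of rat liver went into SMARTER mRNA libraries. The submitters' processing notes name the build mRatBN7.2. The sources used here name no aligner, counting tool, annotation or strand setting. The deposited values are a signal of 0 or above: read counts that the authors divided by 1 factor per library, with no statement of how it was derived. Dividing each value by its library's lowest value above 0, taken as 1 read, gave a whole number, within 0.02, for 99.67% of rows. Whole reads were so recovered, and the other 53 rows were rounded. Libraries held 13372367 to 14933853 reads in genes. Ginkgetin columns match the sample titles. The remaining 3, named TAA, a term absent from the labels, were read as vehicle replicates 1 to 3, and every direction depends on that reading. Whether replicates are separate animals is not said in the labels, and p-values then cover only the spread among these samples, which may be technical. The lowest chi-square per degree of freedom between the reads of any pair of libraries was 49.9, so none was a duplicate.

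The test was limma 3.58.1 (R 4.3.3) on log2(value + 1), two-sided, with trended and robust variance moderation, over the 14639 genes that reached 1 in at least 3 libraries. All 8 members passed that filter. The method was run on simulated reads with a common dispersion for all genes, no outlying library, and changes only in genes above the median level. That run does not cover genes of few reads or a library that stands apart, as vehicle replicate 3 does. For genes of few reads such as Ces2c, this log scale gives too small a change. edgeR 4.0.16 and DESeq2 1.42.0 were run on recovered reads as alternatives, beside other pseudocounts, filters and scalings, a replicate block and each library left out. The members, lists and tests were chosen with earlier results of these data known. Named genes were all members, up to 4 genes with the smallest p in each list, and the 5 genes of at least 50 mean reads most alike in log2 level. Some pancreas and intestinal markers, and Ces1a, were named outside this rule, with their reads. LOC679149, the scales relative to Alb and hepatocyte markers, the shared promoter stretch and the Ces2e spread were added after the values were seen. Gene symbols of the 8 members were matched to a RefSeq table of GRCr8, used for names, neighbours and promoter windows.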

Additional observations from a re-analysis of the deposited data

How the results depend on the processing

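The count of members with a lower mean was 1 in the reported setting. It was 2 with equal library totals and 1 to 2 with 1 library left out: Ces2g was added without vehicle replicate 3 and Ces2e without ginkgetin replicate 2. Relative to Alb or to the hepatocyte marker level, both chosen after seeing the data, it was 5. Ces2c kept its direction in all these settings. It was called by limma without vehicle replicate 3 and by DESeq2, and Ces1d was called without vehicle replicate 1. Equal library totals moved the median of all genes by -0.51, and relative to that median Ces2g lay at 0.49. Over all genes, limma called 2. The count was 5 with a pseudocount of 5, 94 with equal totals, 1 with quantile scaling, 0 with edgeR (2893 at an unadjusted p of 0.05) and 1380 with DESeq2. With 1 library left out it ran from 0 to 696, with 696 without vehicle replicate 1 and 84 without vehicle replicate 3. Of the 132 genes of other lists, 0 were called, against 7 with equal totals, 24 with DESeq2 and 0 to 25 with 1 library left out (25 without vehicle replicate 1 and 8 without vehicle replicate 3). Where no cause is named, the cause was not tested. With the replicate block 0 genes were called over all genes. Whether the replicate numbers pair the samples was not settled. Deviations from the group means of same-numbered libraries correlated at -0.163, 0.029 and -0.211. Those of differently numbered libraries correlated at -0.103 to 0.198. With 3 libraries per group these values cannot show pairing or its absence. Ces2c rests on 4 to 11 reads per ginkgetin library, so its fold change is imprecise.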
